A study of Homo sapiens with 12 samples.

Results

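SFRP1 and 9 other genes of the Wnt pathway were followed across 2 uveal melanoma cell lines with and without overexpression of the long noncoding RNA CANT1. The 10 genes were given as a list: the secreted antagonists SFRP1, DKK1 and DKK3, the ligands WNT5A and WNT5B, the receptors FZD2 and FZD7, and the intracellular genes LEF1, TCF7L2 and AXIN2. They are 10 of 18132 genes with a probe set that names 1 gene only, and each is represented by the probe set of that kind with the highest mean over the 12 arrays. SFRP1 had already been seen to differ in OCM1 when the list was made. Its values there, and every contrast that uses those arrays, are therefore given as a description with no test. Which values were looked at when the other 9 were chosen is not recorded, so their p-values, although adjusted over all genes tested, are not independent evidence.

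Total RNA was hybridised to 12 Affymetrix PrimeView arrays, a 3′ expression array for human transcripts. The lines are MUM2B and OCM1, and each was measured as wild type cells and as cells overexpressing CANT1, a transcript of the CASC15 locus, at 3 arrays in each of the 4 groups. On the replicate 1 arrays the growth label names puromycin selection of the CANT1 cells in culture medium, and on replicates 2 and 3 it names DMEM with serum. On replicate 1 the sample titles say wild type or CANT1 overexpressed. On replicates 2 and 3 they give the line with or without a numeric suffix, and the suffix was read as CANT1. The controls, so read, are wild type cells in all 3 replicates, and the labels describe no empty vector. An effect of CANT1 therefore cannot be told apart from one of the vector or the selection. Whether the CANT1 cells are 1 clone or a pool, and whether replicates are separate cultures, is not said, so a p-value here reflects the variation among arrays alone, and that may be technical. The array's CASC15 probe set may lie outside CANT1, and the overexpression itself was not checked here.

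Wnt proteins are secreted lipid-modified ligands that bind Frizzled receptors, together with the co-receptors LRP5 and LRP6 in the β-catenin branch or ROR and RYK receptors in the branches that do not need β-catenin. When the β-catenin branch is active, the destruction complex built on axin and APC no longer degrades β-catenin, which enters the nucleus and works with the factors LEF1 and TCF7L2. Secreted frizzled-related proteins such as SFRP1 bind Wnt proteins outside the cell, and Dickkopf proteins such as DKK1 block LRP5 and LRP6. In cutaneous melanoma LEF1 is known from pigmented, proliferating cells and WNT5A from invasive cells.

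RefSeq promoter windows, 250 bases upstream of the transcript start on GRCh38.p14, were used for 5 of the 10 genes, in 9 windows. Windows on the chromosome that carries SFRP1 were left out beforehand, so none is given for SFRP1. Shown here are those of DKK1, the gene whose level in OCM1 lay furthest below that in MUM2B, and of LEF1, the one that lay furthest above. The windows were searched on both strands for 4 forms of the sequence that LEF and TCF proteins bind (the form CTTTGAA, the form CTTTGAT, the form CTTTGTA and the form CTTTGTT), and for the TATA box TATAAA. Matches are in capitals and do not overlap each other.
DKK1: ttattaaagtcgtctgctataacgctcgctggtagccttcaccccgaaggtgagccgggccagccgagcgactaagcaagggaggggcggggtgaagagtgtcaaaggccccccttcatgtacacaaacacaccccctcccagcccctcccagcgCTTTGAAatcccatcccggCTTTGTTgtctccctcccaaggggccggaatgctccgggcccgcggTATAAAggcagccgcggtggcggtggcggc
LEF1: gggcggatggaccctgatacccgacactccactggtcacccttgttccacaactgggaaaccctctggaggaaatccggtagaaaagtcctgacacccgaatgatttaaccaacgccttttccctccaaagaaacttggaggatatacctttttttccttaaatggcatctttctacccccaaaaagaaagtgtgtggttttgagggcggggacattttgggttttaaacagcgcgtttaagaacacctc
The DKK1 window is chr10:52314031-52314280 on the plus strand and the LEF1 window chr4:108166302-108166551 on the minus strand. In the DKK1 window CTTTGAA began 95 bases, CTTTGTT 76 bases and TATAAA 30 bases before the start. No match lay in the LEF1 window, nor in either WNT5A window. Of the 3 TCF7L2 windows 1 held CTTTGTT, 133 bases before the start. Of the 2 WNT5B windows 1 held TATAAA, 78 bases before the start and on the strand opposite to the transcript. Over all 35116 windows of this length, 12% held a match to one of the 4 LEF and TCF forms and 10.7% held TATAAA, so such matches are common and are a description of the letters only.

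Values are given as a level, log2 of the scaled signal plus 32, and differences are between such levels, which understates the fold of dim genes. An error written ± is the standard error of limma unless SD is written. A call is a limma p-value under 0.05 after Benjamini-Hochberg adjustment over the 12711 genes tested on 12 arrays, or the 12101 tested on replicates 2 and 3 alone. Levels of different genes come from different probe sets and are not compared.

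The replicate 1 arrays stood apart from the others. Their 3′ to 5′ ratio of the ACTB control probe sets was 2.147 to 2.514 in log2, against 0.473 to 0.911 on replicates 2 and 3. The wild type OCM1 array of replicate 1 stood furthest from its own line, with a mean correlation of 0.829 across genes, against 0.936 to 0.978 for the other 11 arrays. Melanocyte marker genes, 9 of 10 listed with a probe set, summed to a signal of 14149 on that array and to 76177 to 81130 on the other 5 OCM1 arrays. In MUM2B the same sum was 718 to 1011. There 4 of the 9 (MITF, PMEL, TYR and SOX10) reached a signal of 100 on all arrays of both groups and MLANA, TYRP1, S100B and EDNRB on none, whereas 8 of 9 reached it on all arrays of wild type OCM1 and 9 of 9 with CANT1. Of 5 immune markers, PTPRC, CD14, CD3E and LYZ were below 100 on every array and CD68 was above it on all arrays except some of wild type OCM1, with sums of 260 to 718. Of 7 epithelial markers, EPCAM and CDH1 were below 100 on every array, 2 to 4 reached it on all arrays of a group (KRT14 and CLDN4 in every group), and the sums were 820 to 2010. The endothelial list summed to 2880 to 5210 in MUM2B and 539 to 691 in OCM1, and the fibroblast list to 224 to 300 and 372 to 1700. For these reasons many results on 12 arrays are set beside those of replicates 2 and 3 below. Most differences between the lines are given on 12 arrays alone.

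SFRP1 was high in both MUM2B groups, low in wild type OCM1 and far higher in OCM1 with CANT1. In wild type MUM2B its level was 11.85, 12.73 and 12.70 on replicates 1, 2 and 3. In MUM2B with CANT1 it was 12.30, 12.70 and 12.67. Wild type OCM1 stood at 6.59, 8.69 and 8.82, and OCM1 with CANT1 at 11.02, 11.87 and 11.98. Every OCM1 array with CANT1 lay above every wild type OCM1 array and below every MUM2B array with CANT1. Only the wild type MUM2B array of replicate 1, at 11.85, was within the range of OCM1 with CANT1.

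In OCM1 the SFRP1 difference, CANT1 minus wild type, was 3.59 ± 0.30 on 12 arrays (3.83 with no offset), or 12.1-fold in the signal plus 32. It was 4.43 between the replicate 1 arrays and 3.17 ± 0.09, or 9.01-fold, on replicates 2 and 3. Without the wild type OCM1 array of replicate 1 the estimate was 3.11 ± 0.14. In bulk RNA, more cells carrying a transcript and more of it per cell cannot be told apart, and this holds for every gene below. In MUM2B the corresponding SFRP1 difference was 0.13 ± 0.30 and was not called (limma adjusted p = 1.00), with the arrays of the groups overlapping. On replicates 2 and 3 it was −0.03 ± 0.09 there (adjusted p = 0.882). The order of the group means was MUM2B with CANT1 (12.56 ± 0.22 SD, n = 3), wild type MUM2B (12.42 ± 0.50 SD, n = 3), OCM1 with CANT1 (11.63 ± 0.52 SD, n = 3) and wild type OCM1 (8.03 ± 1.25 SD, n = 3), and the leading pair did not differ beyond its spread. Between the lines, OCM1 minus MUM2B, SFRP1 was at −4.39 ± 0.30 in wild type cells and at −0.93 ± 0.30 with CANT1.

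**Figure D1:**
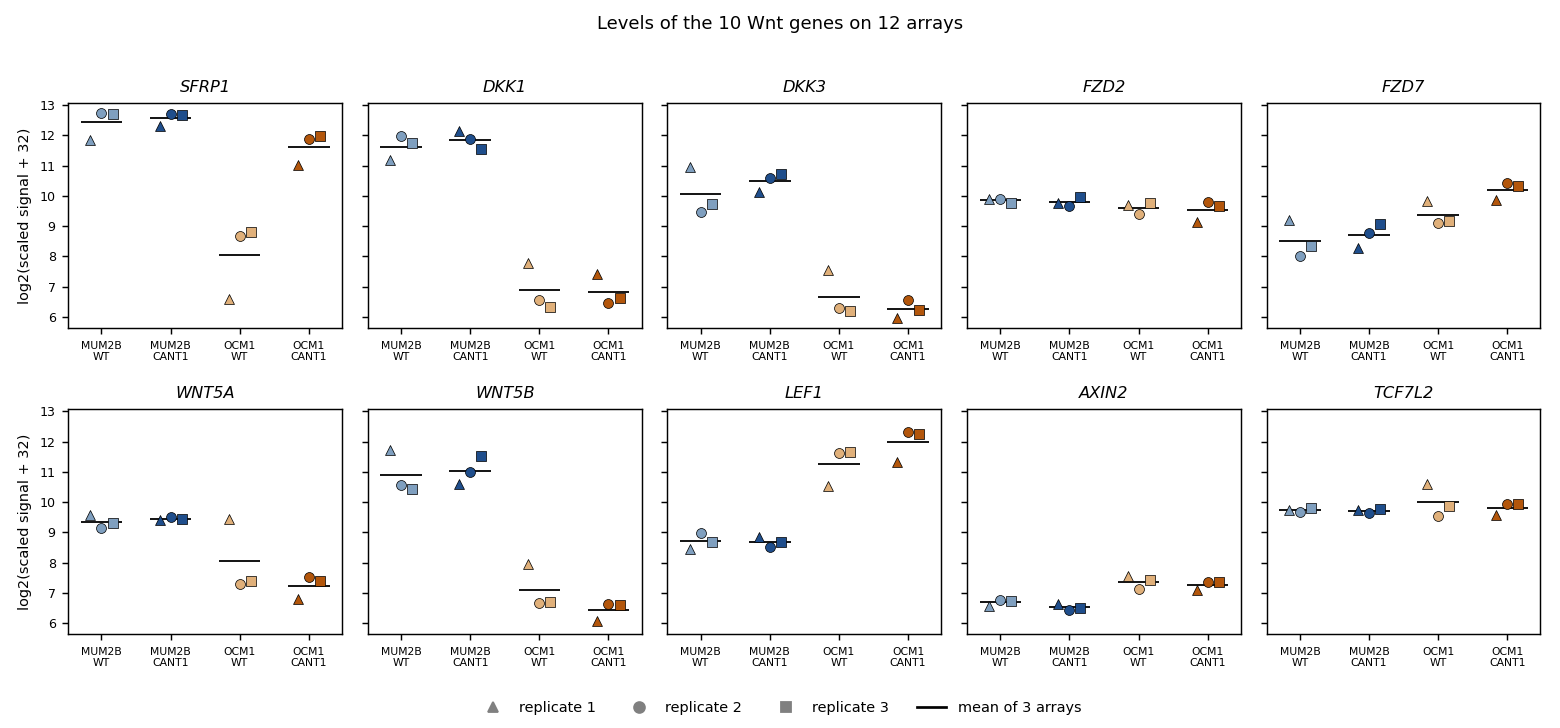
Level of each of the 10 genes, log2 of scaled signal plus 32, on each of 12 arrays (triangles replicate 1, circles replicate 2, squares replicate 3) in the 4 groups, with a bar at the mean of 3 arrays. SFRP1 in OCM1 lies at 6.59 to 8.82 in wild type cells and at 11.02 to 11.98 with CANT1, while DKK1, DKK3 and WNT5B are low in both OCM1 groups.

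DKK1, the LRP5 and LRP6 blocker that is also a transcriptional target of the pathway, separated the lines and did not follow CANT1. Its level in wild type MUM2B was 11.17, 11.96 and 11.74, and 12.13, 11.87 and 11.56 with CANT1. In OCM1 it was 7.79, 6.58 and 6.32 in wild type cells and 7.42, 6.48 and 6.62 with CANT1. Every OCM1 array was thus far below every MUM2B array, and only 2 of the 6 OCM1 arrays, against 6 of 6 in MUM2B, reached a signal of 100. The line difference was −4.72 ± 0.35 in wild type cells and −5.01 ± 0.35 with CANT1. It is given without a test because DKK1 entered the tested genes through MUM2B alone, so the filter favoured a difference. The CANT1 difference was −0.06 ± 0.35 in OCM1 (limma adjusted p = 0.977) and 0.23 ± 0.35 in MUM2B (adjusted p = 1.00), neither called, and on replicates 2 and 3 it was 0.10 ± 0.13 and −0.13 ± 0.13. SFRP1 and DKK1 were thus both low in wild type OCM1, and with CANT1 DKK1 stayed at 6.84 ± 0.50 SD (n = 3) where SFRP1 stood at 11.63 ± 0.52 SD.

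DKK3, a Dickkopf family member whose relation to Wnt signalling is less direct than that of DKK1, also separated the lines. Wild type MUM2B was at 10.95, 9.47 and 9.72 and MUM2B with CANT1 at 10.13, 10.59 and 10.71. Wild type OCM1 was at 7.54, 6.30 and 6.19 and OCM1 with CANT1 at 5.98, 6.58 and 6.25. The line difference was −3.37 ± 0.41 in wild type cells and −4.21 ± 0.41 with CANT1, without a test for the same reason, since 1 of 6 OCM1 arrays reached a signal of 100. Within MUM2B the wild type replicate 1 array was the highest of the 6, whereas on replicates 2 and 3 both CANT1 arrays lay above both wild type arrays. The CANT1 difference in MUM2B was accordingly 0.43 ± 0.41 on 12 arrays (limma adjusted p = 1.00), −0.81 between the replicate 1 arrays and 1.06 ± 0.13 on replicates 2 and 3 (adjusted p = 0.000546). In OCM1 it was −1.56 on replicate 1 and 0.17 ± 0.13 on replicates 2 and 3 (adjusted p = 0.378).

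WNT5A, a ligand that acts mainly outside the β-catenin branch, was higher in MUM2B than in OCM1 on all arrays but 1. The levels were 9.58, 9.16 and 9.31 in wild type MUM2B and 9.40, 9.52 and 9.44 in MUM2B with CANT1. They were 9.43, 7.31 and 7.40 in wild type OCM1 and 6.82, 7.54 and 7.39 in OCM1 with CANT1. The exception, 9.43, is the wild type OCM1 array of replicate 1, which lay inside the MUM2B range. With it, the wild type line difference was −1.31 ± 0.45 and was not called (limma adjusted p = 0.050, just above the threshold). Without that array it was −2.04 ± 0.21 (adjusted p = 4.12e-05), and on replicates 2 and 3 it was −1.88 ± 0.10 (adjusted p = 1.35e-08). Leaving out the replicate 1 array of OCM1 with CANT1, the estimate stayed at −1.31 and passed (adjusted p = 0.0287). Among the CANT1 arrays the lines differed by −2.20 ± 0.45 (adjusted p = 0.00405) with no overlap. The CANT1 difference in OCM1 was −2.61 on replicate 1, 0.11 ± 0.10 on replicates 2 and 3 (adjusted p = 0.474) and −0.80 ± 0.45 on 12 arrays (adjusted p = 0.624), so its sign depended on that array. In MUM2B it was 0.10 ± 0.45 (adjusted p = 1.00).

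WNT5B, the close relative of WNT5A, showed a larger separation of the lines. It stood at 11.72, 10.55 and 10.42 in wild type MUM2B and at 10.59, 10.99 and 11.52 with CANT1. In OCM1 it stood at 7.96, 6.66 and 6.70 in wild type cells and at 6.09, 6.63 and 6.62 with CANT1, and 1 of 6 arrays reached a signal of 100. The line difference was −3.79 ± 0.42 in wild type cells and −4.59 ± 0.42 with CANT1, again without a test because WNT5B passed through MUM2B alone. In MUM2B the CANT1 difference took opposite signs in the replicates: −1.13 on replicate 1, and an increase of 0.77 ± 0.14 on replicates 2 and 3 (limma adjusted p = 0.00372). On 12 arrays it was 0.14 ± 0.42 (adjusted p = 1.00). In OCM1 the CANT1 arrays all lay below the wild type arrays, yet replicates 2 and 3 differed by only −0.05 ± 0.14 (adjusted p = 0.827), and the 12-array difference of −0.66 ± 0.42 (adjusted p = 0.672) rests on the −1.87 of replicate 1. On the wild type OCM1 array of replicate 1, DKK1, DKK3, WNT5A and WNT5B all stood above the other 5 OCM1 arrays on the probe sets used. SFRP1 stood below them, beside the melanocyte marker sum of 14149 given above. On their other probe sets DKK3 and WNT5B were not highest in OCM1 on that array. For WNT5B it stood at 6.95 and 6.50 there, below the 6.97 and 6.70 of the replicate 1 array with CANT1. The part of that array's marker sum in these results was not tested.

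Of the Frizzled receptors, FZD2 was nearly level over the 4 groups and FZD7 was higher in OCM1. FZD2 stood at 9.90, 9.90 and 9.78 in wild type MUM2B, 9.77, 9.68 and 9.96 in MUM2B with CANT1, 9.69, 9.40 and 9.75 in wild type OCM1, and 9.14, 9.81 and 9.67 in OCM1 with CANT1. All 4 of its differences between groups were within 0.26 of zero, and the widest was −0.26 ± 0.17, between the lines with CANT1 (limma adjusted p = 0.275). The wild type arrays of the lines did not overlap, at 9.78 to 9.90 in MUM2B and 9.40 to 9.75 in OCM1, but their difference of −0.25 ± 0.17 was not called (adjusted p = 0.323). FZD7, a receptor found in many tumours and stem cells, stood at 9.19, 8.0 and 8.33 in wild type MUM2B and at 8.28, 8.78 and 9.06 with CANT1. In OCM1 it stood at 9.82, 9.11 and 9.18 in wild type cells and at 9.86, 10.41 and 10.31 with CANT1. The arrays of OCM1 with CANT1 were all above those of wild type OCM1, though on replicate 1 by only 0.04.

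FZD7 rose with CANT1 in both lines on replicates 2 and 3. The increase was 1.21 ± 0.13 in OCM1, or 2.32-fold (limma adjusted p = 9.82e-05), and 0.76 ± 0.13 in MUM2B (adjusted p = 0.00250). The difference between these was 0.46 ± 0.18 and was not called (adjusted p = 0.0982). Without replicate 2 of wild type MUM2B it was 0.63 ± 0.18 and passed (adjusted p = 0.0436). On replicate 1 the MUM2B difference was −0.91, and on 12 arrays the values were 0.82 ± 0.33 in OCM1 (adjusted p = 0.489) and 0.20 ± 0.33 in MUM2B (adjusted p = 1.00). Between wild type lines the FZD7 difference was 0.86 ± 0.33 (adjusted p = 0.0760), and with CANT1 it was 1.49 ± 0.33 and passed (adjusted p = 0.00672). Without the wild type MUM2B array of replicate 1, whose level of 9.19 lay within the wild type OCM1 range, the wild type line difference was 1.26 ± 0.30 and passed (adjusted p = 0.0106).

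LEF1, the nuclear partner of β-catenin, was the gene of the list with the clearest excess in OCM1. Its level was 8.47, 8.97 and 8.68 in wild type MUM2B and 8.85, 8.53 and 8.67 with CANT1. It was 10.54, 11.62 and 11.66 in wild type OCM1 and 11.34, 12.33 and 12.24 with CANT1. No OCM1 array came near the MUM2B range. The line difference was 2.56 ± 0.25 in wild type cells (limma adjusted p = 6.42e-05) and 3.28 ± 0.25 with CANT1 (adjusted p = 1.17e-05). In OCM1 the CANT1 difference was positive in both parts of the data, 0.80 on replicate 1 and 0.64 ± 0.11 on replicates 2 and 3, where it passed (adjusted p = 0.00209). On 12 arrays it was 0.70 ± 0.25, or 1.62-fold in the signal plus 32, and was not called (adjusted p = 0.431). The replicate 1 array with CANT1 lay below wild type replicates 2 and 3. In MUM2B the CANT1 difference was −0.02 ± 0.25 (adjusted p = 1.00).

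TCF7L2, the LEF1 relative that transmits β-catenin signals in many tissues, was at similar levels in all groups. Wild type MUM2B stood at 9.74, 9.67 and 9.80, MUM2B with CANT1 at 9.75, 9.63 and 9.76, wild type OCM1 at 10.61, 9.55 and 9.88, and OCM1 with CANT1 at 9.57, 9.94 and 9.93. Only the wild type OCM1 array of replicate 1 was set off from the rest. The line difference was 0.28 ± 0.23 in wild type cells (limma adjusted p = 0.395) and 0.10 ± 0.23 with CANT1 (adjusted p = 0.757), and none of its CANT1 differences was called. AXIN2, a scaffold of the destruction complex and a standard feedback target of β-catenin signalling, was dim. It stood at 6.57, 6.77 and 6.75 in wild type MUM2B, 6.65, 6.43 and 6.52 with CANT1, 7.57, 7.13 and 7.42 in wild type OCM1 and 7.10, 7.36 and 7.35 with CANT1. None of the MUM2B arrays and all 6 OCM1 arrays reached a signal of 100. AXIN2 was 0.68 ± 0.14 higher in wild type OCM1 than in wild type MUM2B and 0.74 ± 0.14 higher with CANT1, without a test because it passed through OCM1 alone. Its CANT1 differences were −0.10 ± 0.14 in OCM1 (adjusted p = 0.863) and −0.16 ± 0.14 in MUM2B (adjusted p = 1.00). On replicates 2 and 3 they were 0.08 ± 0.11 in OCM1 (limma adjusted p = 0.638) and −0.28 ± 0.11 in MUM2B (adjusted p = 0.0764). With no offset the latter was −0.44 ± 0.13 and passed (limma adjusted p = 0.0391).

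Counted over the list, CANT1 in OCM1 gave 1 gene higher, SFRP1, and 0 lower of 10 on 12 arrays, where 0.102% of all genes tested were called (0.0944% higher and 0.00787% lower). That gene is the one chosen on this contrast, so nothing is read from the count. The arrays of wild type and CANT1 OCM1 cells did not overlap for SFRP1, FZD7 and WNT5B, against 11.5% of all genes. With replicates 2 and 3 alone, SFRP1, FZD7 and LEF1 were higher and 0 were lower, beside 23.3% of all genes called (13.7% higher and 9.60% lower). The median difference of the 10 was 0.17 there and that of all genes 0.04. A share of 3 in 10 is near that background.

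In MUM2B, CANT1 gave 0 calls among the 10 by limma on 12 arrays, with 0 of 10 at an unadjusted p under 0.05, and 0.00% of all genes were called, with 219 genes at an unadjusted p under 0.05. The counts of non-overlapping arrays were 0 of 10 in the list and 4.79% of all genes. The arrays of replicates 2 and 3 gave DKK3, WNT5B and FZD7 as higher and 0 as lower, beside 25.0% of all genes called (14.4% higher and 10.7% lower). Each of the 3 had the opposite sign on replicate 1. With limma array weights over 12 arrays these 3 genes were called as well, at 0.86 for DKK3, 0.61 for WNT5B and 0.51 for FZD7.

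Whether the CANT1 difference itself differed between the lines was tested as the OCM1 difference minus the MUM2B difference. SFRP1 stood at 3.46 ± 0.42 on 12 arrays and 3.20 ± 0.13 on replicates 2 and 3, given as a description. None of the other 9 was called on 12 arrays, where 0.0472% of all genes were called (0.0393% higher and 0.00787% lower). Among arrays of replicates 2 and 3 the call went to LEF1 (0.87 ± 0.16, limma adjusted p = 0.00356), DKK3 (−0.89 ± 0.18, adjusted p = 0.00611) and WNT5B (−0.83 ± 0.20, adjusted p = 0.0150), beside 21.8% of all genes (11.2% higher and 10.6% lower). WNT5B did not pass without replicate 3 of wild type OCM1 (−0.81 ± 0.24, adjusted p = 0.0518). This test on replicates 2 and 3 was added after the values were seen. On the probe sets used, DKK3 and WNT5B passed the filter through MUM2B alone. On replicates 2 and 3 both were near background in OCM1, so a fall there could hardly show. Their values rest mostly on the MUM2B differences on replicates 2 and 3, 1.06 and 0.77, beside 0.17 and −0.05 in OCM1. On the probe sets used, the replicate 1 values of the OCM1 minus MUM2B contrast were 0.41 for LEF1, −0.75 for DKK3 and −0.74 for WNT5B. Each had the same sign as on replicates 2 and 3. Other probe sets of DKK3 and WNT5B, given below, had the opposite sign on replicate 1. The parts of the contrast were not alike, however. On replicate 1 DKK3 and WNT5B were at −0.81 and −1.13 in MUM2B and at −1.56 and −1.87 in OCM1. LEF1 in MUM2B was at 0.39 on replicate 1 and at −0.23 on replicates 2 and 3.

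**Figure D2:**
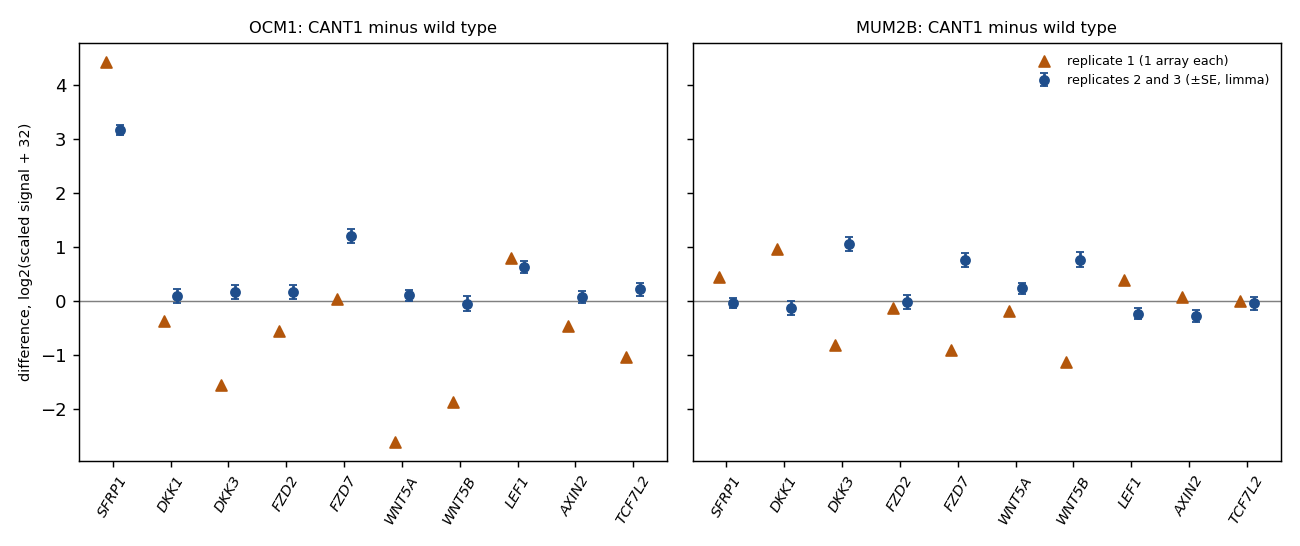
Difference CANT1 minus wild type, in log2 of scaled signal plus 32, for the 10 genes in OCM1 and MUM2B. Triangles are the single pair of replicate 1 arrays, and circles the limma estimate from replicates 2 and 3 with its standard error. SFRP1 and LEF1 in OCM1 lie above zero in both (4.43 and 3.17, 0.80 and 0.64), while DKK3, WNT5B and FZD7 in MUM2B change sign between them.

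Between the wild type lines 6 of 10 genes were called on 12 arrays, LEF1 and AXIN2 higher in OCM1 and SFRP1, DKK1, DKK3 and WNT5B lower, beside 32.9% of all genes tested (19.1% higher and 13.9% lower). With CANT1 8 of 10 were called, with FZD7 added to those higher and WNT5A to those lower, beside 37.2% (21.1% higher and 16.1% lower). SFRP1 is among these counts as a description. Its difference among the CANT1 arrays ran from −1.06 to −0.62 over the alternative analyses, at −0.62 without replicate 1 of MUM2B with CANT1. The counts on replicates 2 and 3 were 3 higher and 5 lower in each comparison. All genes were called at 64.6% in wild type cells (35.1% higher and 29.5% lower) and at 66.3% with CANT1 (38.2% higher and 28.1% lower). The median difference of the 10 genes was −0.78 in wild type cells and −0.60 with CANT1 on 12 arrays, against 0.06 and 0.09 for all genes. Arrays of the wild type lines did not overlap for 32.6% of all genes and arrays of the CANT1 lines for 51.5%. All 10 genes passed the filter of a signal of at least 100 on 3 arrays. On the probe sets used, AXIN2 passed it through OCM1 alone, and DKK1, DKK3 and WNT5B through MUM2B alone. The filter thus favoured a difference between the lines for these 4, and the counts support nothing. The melanocyte and endothelial marker sums given above also differed between the lines, and their part in these differences was not tested.

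**Figure D3:**
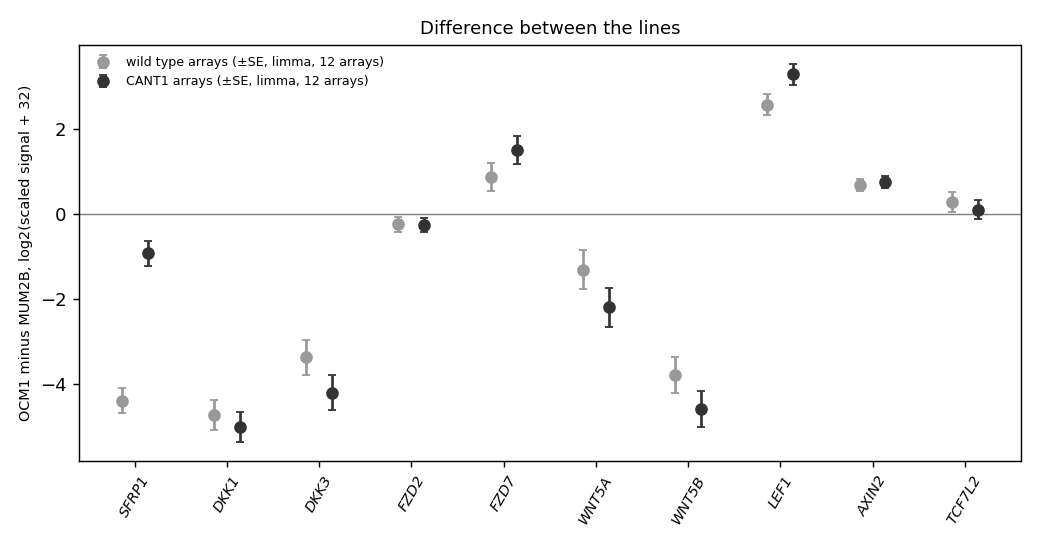
Difference OCM1 minus MUM2B in log2 of scaled signal plus 32 for the 10 genes, in wild type cells (grey) and with CANT1 (black), with the limma standard error from 12 arrays. SFRP1 moves from −4.39 to −0.93, while DKK1 (−4.72 and −5.01) and LEF1 (2.56 and 3.28) keep their side.

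Other probe sets were set beside the chosen ones as a check, where a probe set is called bright if it reached a signal of 100 on at least 3 arrays. All 4 SFRP1 probe sets were higher with CANT1 in OCM1, by 1.73 to 3.17 on replicates 2 and 3 and by 0.80 to 4.43 on replicate 1. The 7 bright LEF1 probe sets were higher by 0.53 to 0.66 on replicates 2 and 3 in that contrast, and higher in wild type OCM1 than in wild type MUM2B by 1.55 to 2.56. A further LEF1 probe set that reached 100 on 1 array was at 0.42 and 0.39. For FZD7 the 3 probe sets ran from 0.52 to 1.21 in OCM1 and from 0.30 to 0.76 in MUM2B on replicates 2 and 3. The 3 WNT5B probe sets gave 0.77 to 0.85 for CANT1 in MUM2B on replicates 2 and 3 and −3.79 to −1.27 between wild type lines. On replicate 1 the WNT5B probe sets not used were at 0.02 and 0.21 for CANT1 in OCM1, against −1.87 on the one used. In MUM2B they were at −1.21 and −0.65. DKK3 was the least uniform. The probe set used gave −3.37 between wild type lines and the other 3 bright ones only −0.60 to −0.42, although all 4 were higher with CANT1 in MUM2B on replicates 2 and 3, by 0.44 to 1.06. The other 3 reached a signal of 100 on all 12 arrays, and in OCM1 on replicates 2 and 3 they were at 0.05 to 0.15. On replicate 1 they were at −0.01 to 0.09 in OCM1, against −1.56 on the probe set used, and at −0.37 to −0.30 in MUM2B. Of 5 WNT5A probe sets 3 were bright, at −1.31 to −0.77 between wild type lines. The 4 bright TCF7L2 probe sets ran from 0.22 to 0.76 for CANT1 in OCM1 on replicates 2 and 3, the probe set used being the lowest. AXIN2 had 1 bright probe set of 3, and DKK1 and FZD2 have 1 each. The probe sets used for SFRP1, FZD7 and LEF1 are of the _s_at kind, which can bind related transcripts.

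**Figure D4:**
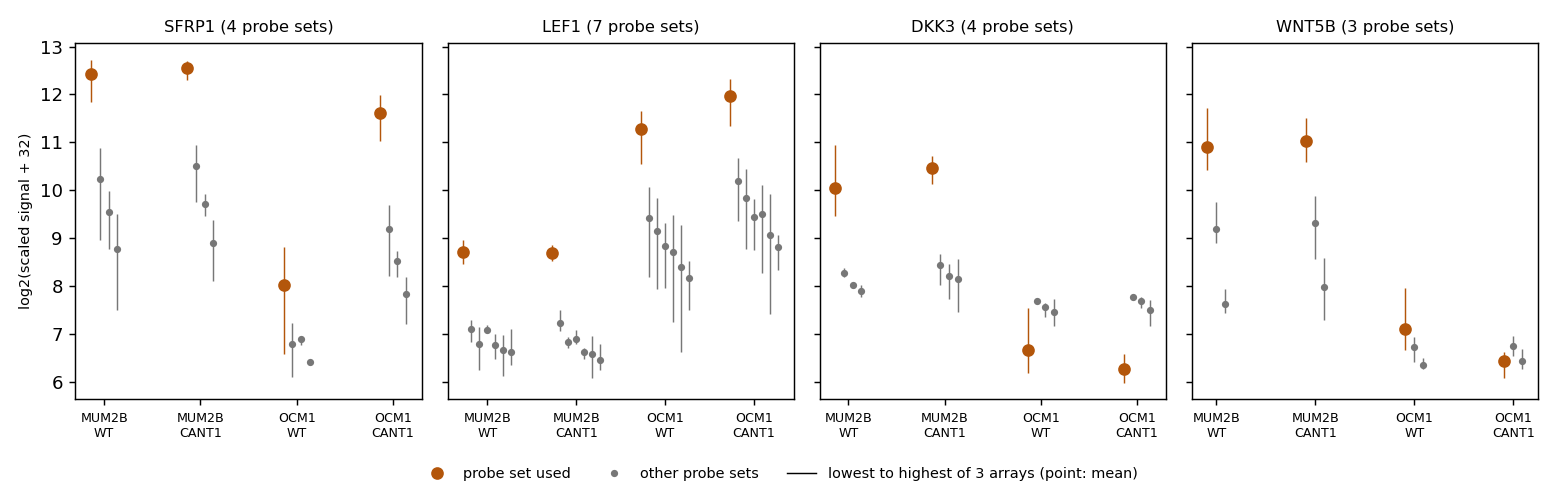
Level in log2 of scaled signal plus 32 of each probe set of SFRP1, LEF1, DKK3 and WNT5B in the 4 groups, with the point at the mean and the line from the lowest to the highest of 3 arrays; the probe set used is in orange. Only probe sets with a signal of 100 on at least 3 arrays are drawn. The 4 SFRP1 and 7 LEF1 probe sets share their direction, whereas 3 DKK3 probe sets separate the lines by far less than the one used.

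The wider pathway was described with 108 further genes grouped by role, of which 103 have a probe set naming them alone and 79 were tested on 12 arrays (76 on replicates 2 and 3). CANT1 gave 0 calls among the 79 by limma in either line on 12 arrays, with 9 genes in OCM1 and 2 in MUM2B at an unadjusted p under 0.05. On replicates 2 and 3, 15 were higher and 5 lower in OCM1, with a median difference of 0.15 against 0.04 for all genes. In MUM2B 15 were higher and 2 lower, with a median of 0.10 against 0.00. Over all genes 13.7% were higher and 9.60% lower in OCM1, and 14.4% higher and 10.7% lower in MUM2B, which is the background for the counts by role below.

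In OCM1 on replicates 2 and 3 the receptor FZD6 rose by 1.20 ± 0.18 (limma adjusted p = 0.000788) and the cell cycle gene CCND1, a known target, by 0.84 ± 0.10 (adjusted p = 0.000161). WLS, which carries Wnt ligands to the cell surface, fell by 0.76 ± 0.12 (adjusted p = 0.00151) and was at −1.08 on replicate 1. MYC, another target, fell by 0.77 ± 0.11 (adjusted p = 0.000521). CTNNBIP1, an inhibitor that binds β-catenin, rose by 0.62 ± 0.09 (adjusted p = 0.000874) and was at 1.46 on replicate 1. The replicate 1 values were −0.17 for FZD6, 0.08 for CCND1 and −0.01 for MYC. Beside 13.7% and 9.60% of all genes, of the nuclear group 5 of 14 were higher and 1 lower, and of the destruction complex group 4 of 18 were higher and 1 lower, among them TNKS, which promotes axin turnover, with a fall of 0.61 ± 0.12 (adjusted p = 0.00492). None of the 8 ligands tested was called in that contrast, and neither of 2 further secreted antagonists. Smaller increases were those of the receptors FZD9 (0.39 ± 0.12) and LGR4 (0.37 ± 0.12), of APC2 (0.49 ± 0.10), DVL3 (0.38 ± 0.12) and BTRC (0.32 ± 0.09) around the destruction complex, of the co-repressors TLE1 (0.56 ± 0.13), TLE2 (0.50 ± 0.12) and TLE4 (0.46 ± 0.10), and of the polarity genes VANGL2 (0.53 ± 0.12) and CELSR2 (0.37 ± 0.10), while VANGL1 fell by 0.29 ± 0.09. On replicate 1 VANGL1 was at −0.48 and APC2 at 0.00, and the other 9 lay between −1.69 and −0.08, against their direction. Each of these 11 calls was lost when an array was left out. Without replicate 2 of wild type OCM1 this held for FZD9, LGR4, DVL3, BTRC, TLE1, VANGL1 and VANGL2, and without its replicate 3 for FZD9, LGR4, DVL3, TLE2, TLE4, CELSR2 and VANGL1. Without replicate 2 of OCM1 with CANT1 it held for all of the 11 except TLE4 and VANGL2, and without its replicate 3 for LGR4, BTRC, CELSR2 and VANGL1. LGR4 and VANGL1 were lost without either wild type MUM2B array as well. The values without those arrays were 0.23 to 0.50 for the genes that rose and −0.35 to −0.22 for VANGL1.

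In MUM2B on replicates 2 and 3 the antagonist DKK2 rose by 1.24 ± 0.20 (limma adjusted p = 0.00183), beside the increase of DKK3. The polarity gene PRICKLE2 rose by 0.96 ± 0.16 (adjusted p = 0.00236), and 5 of 12 further receptors were higher, beside 14.4% of all genes, among them ROR1 (0.53 ± 0.15), FZD8 (0.50 ± 0.11), FZD4 (0.50 ± 0.11) and FZD1 (0.40 ± 0.12). TLE4, a Groucho co-repressor that binds LEF and TCF factors, fell by 0.83 ± 0.10 (adjusted p = 0.000493), while its relatives TLE1 (0.65 ± 0.13) and TLE3 (0.48 ± 0.10) rose. On replicate 1, DKK2 was at −0.58, PRICKLE2 at −0.34, FZD4 at −1.10 and TLE4 at 0.56, each of the opposite sign. ROR1 (−0.22), TLE1 (−0.65) and TLE3 (−0.44) had the opposite sign there too, while FZD1 was at 0.40 and FZD8 at 0.18, of the same sign. Without replicate 3 of MUM2B with CANT1 the calls of FZD8 (0.47), FZD4 (0.37) and TLE1 (0.55) were lost. ROR1 was lost without that array, without replicate 2 of MUM2B with CANT1 or without replicate 2 of wild type MUM2B, at 0.39 to 0.56, and FZD1 without any of these or without replicate 2 or 3 of wild type OCM1, at 0.20 to 0.47. Smaller increases were those of WNT7A (0.40 ± 0.13), LGR4 (0.35 ± 0.12), TNKS (0.43 ± 0.12), CTNNBIP1 (0.33 ± 0.09), APCDD1 (0.35 ± 0.10) and CELSR1 (0.36 ± 0.11), and WLS fell by 0.49 ± 0.12. CTNNBIP1 (0.47) and CELSR1 (0.33) had the same sign on replicate 1 and the other 5 the opposite. All 7 calls were lost without at least 1 array: WNT7A, LGR4, TNKS, CTNNBIP1, APCDD1 and CELSR1 without replicate 2 of wild type MUM2B, and WNT7A, LGR4, APCDD1, CELSR1 and WLS without its replicate 3. Without replicate 2 of MUM2B with CANT1 this held for CTNNBIP1 and APCDD1, and without its replicate 3 for all of the 7 except APCDD1. LGR4 was lost without any 1 of the 4 OCM1 arrays and WNT7A without either wild type one. The values without those arrays were 0.17 to 0.42 for the genes that rose and −0.38 to −0.35 for WLS.

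Between the wild type lines 22 of the 79 further genes were higher in OCM1 and 14 lower on 12 arrays, beside 19.1% and 13.9% of all genes, with a median difference of 0.09 against 0.06. Of these 36 genes 9 reached a signal of 100 on 3 or more arrays in 1 line only, so the filter favoured a difference for them and the counts support nothing. The 7 of them that are named here, DKK2, WNT7A, DAAM2, VANGL2, FZD3, TNFRSF19 and APCDD1, are given without a test. CCND1 was lower in OCM1 by a log2 difference of −3.02 ± 0.18 (limma adjusted p = 1.93e-06), and the antagonist DKK2, like DKK1 and DKK3, was lower, at −1.96 ± 0.36. KREMEN1, a receptor for Dickkopf proteins, was higher in OCM1 by 1.27 ± 0.17 (adjusted p = 0.000422). Of the planar polarity genes 6 of 10 were higher and 1 lower, led by DAAM2 (3.30 ± 0.43), VANGL2 (1.86 ± 0.32) and CELSR2 (1.71 ± 0.22, adjusted p = 0.000337). Among receptors FZD6 (−1.42 ± 0.27) and RYK (−0.77 ± 0.14) were lower and FZD3 (1.36 ± 0.27) and FZD5 (0.72 ± 0.22) higher. Among feedback targets TNFRSF19 (2.44 ± 0.54), MYC (0.97 ± 0.17) and APCDD1 (0.88 ± 0.27) were higher. On replicate 1 TNFRSF19 was at 0.40 and APCDD1 at −0.03, beside 3.46 and 1.34 on replicates 2 and 3. FZD5 lost its call without replicate 1, 2 or 3 of wild type MUM2B or replicate 1 or 3 of wild type OCM1, at 0.47 to 0.81. WLS was lower in OCM1, at −0.79 ± 0.18 in wild type cells (adjusted p = 0.00833) and −1.40 ± 0.18 with CANT1 (adjusted p = 0.000292).

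Among the remaining genes compared between the wild type lines, the ligand WNT7A stood at −0.94 ± 0.20. The ligand WNT10B (0.55 ± 0.14), the R-spondin receptor LGR4 (1.03 ± 0.30), TNKS (0.77 ± 0.26), DVL2 (0.72 ± 0.13), TLE1 (1.01 ± 0.26), CTBP2 (0.81 ± 0.20) and DAAM1 (1.36 ± 0.41) were higher in OCM1 by limma. The casein kinases CSNK1D (−1.19 ± 0.19) and CSNK1A1 (−1.07 ± 0.13), TLE4 (−1.87 ± 0.49) and BCL9L (−0.81 ± 0.20) were lower. The calls of LGR4, TNKS, TLE4 and DAAM1 were lost without replicate 2 or 3 of either wild type line, that of LGR4 also without replicate 1 of wild type OCM1, and that of TNKS also without any CANT1 array other than replicate 1 of OCM1. TLE1 was lost without replicate 2 or 3 of wild type MUM2B, and WNT10B without replicate 3 of either line. The values then were 0.85 to 1.11 for LGR4, 0.54 to 0.77 for TNKS, −1.63 to −1.53 for TLE4, 1.09 to 1.18 for DAAM1, 0.78 to 0.97 for TLE1 and 0.41 to 0.49 for WNT10B. On the replicate 1 arrays alone TLE4 was at 0.20, TNKS at −0.04 and DAAM1 at −0.33, against their direction.

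The genes whose pattern was most like that of SFRP1 over the 12 arrays, after the mean of each growth set was subtracted, were SRPX2 (Pearson r = 0.975), OSBPL10 (0.971), ALDH1A3 (0.960), KHDRBS3 (0.960) and ELOVL6 (0.959). The arrays fall into 4 groups of 3, so these values describe mainly the order of the group means, and they carry no p. ALDH1A3, a retinaldehyde dehydrogenase, had group means of 12.81 in wild type MUM2B, 12.73 in MUM2B with CANT1, 9.41 in wild type OCM1 and 12.14 in OCM1 with CANT1. SRPX2 had 8.76, 8.85, 7.12 and 8.20 in the same order. Being picked for this likeness, both repeat the SFRP1 pattern, with wild type OCM1 low and the other 3 groups higher.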

How the data were processed

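Each array's deposited values, 1 for each of 49395 probe sets, were read as log2 intensities because their range fits no linear scale. The authors' signal method was MAS5, per the submitters' processing notes, and the log base, centring and normalization are not given in the sources used here. The 4 replicate 1 columns had medians between 6.85 and 6.88, the remaining columns between 6.38 and 6.45, and the values within each set share nearly one distribution, so a global shift could not be seen. After 102 controls were left out, 44988 probe sets named 1 gene, 1832 several and 2473 none, and 44961 were matched to current symbols by gene identifier.

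From these values, 2 was raised to each deposited log2 value, a 2% trimmed mean of 500 was set for each array, and log2 was taken after adding 32. Genes reaching a signal of 100 in 3 or more arrays entered the test, limma's lmFit and eBayes (version 3.58.1, R 4.3.3), with a term for each of 4 groups and 1 for the growth label (7 residual degrees of freedom, or 4 on replicates 2 and 3). The number of arrays limits the precision. The code was checked on simulated arrays with planted changes.

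The 10 genes and all lists were chosen with earlier results of these data known. The text names all 10 genes, from each role of the wider Wnt list up to 4 genes by the size of a called difference (CANT1 on replicates 2 and 3, wild type lines on 12 arrays), and the 5 genes most like SFRP1. Alternatives covered offset, normalization, filter, probe set, growth term, replicate block, array weights, intensity trend, the arrays in the fit, and each array left out.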

Additional observations from a re-analysis of the deposited data

Results flagged for a closer look

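The CANT1 difference was not the same in the 2 lines (OCM1 minus MUM2B, log2) for the genes below. SFRP1 was at 3.46 on 12 arrays and 3.20 on replicates 2 and 3, which is the difference the list was made on and is a description with no test. The others were called by a limma test of the difference itself on replicates 2 and 3, added after the values were seen. On those arrays 21.8% of all genes were called in that test. LEF1 was at 0.87, DKK3 at −0.89 and WNT5B at −0.83. On the probe sets used, DKK3 and WNT5B passed the filter through MUM2B alone, as did DKK2 below. A fall in OCM1 could thus hardly show for them on replicates 2 and 3.

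Of 76 genes of the wider pathway tested on the same arrays, 5 were called higher and 5 lower, beside 11.2% and 10.6% of all genes. The CANT1 difference lay higher in OCM1 than in MUM2B for TLE4 (1.30), FZD6 (1.44), CCND1 (0.66), APC2 (0.61) and ZNRF3 (0.54). It lay lower for DKK2 (−1.12), TNKS (−1.04), FZD4 (−0.82), FZD8 (−0.60) and MYC (−0.52). These are differences between CANT1 differences and not between levels. TLE4 had the smallest adjusted p of these 10 (0.000192), and on replicate 1 its value was −2.25, of the opposite sign. On replicate 1 FZD6 (−0.35), CCND1 (−0.11), ZNRF3 (−1.37), DKK2 (0.13), TNKS (0.04) and FZD4 (1.04) also had the opposite sign, while FZD8 (−1.17), APC2 (0.38) and MYC (−0.19) had the same sign. Some of these lost the call when 1 array was left out. With MUM2B CANT1 replicate 3 left out, FZD8 and DKK2 were lost, and with its replicate 2 left out, ZNRF3 and MYC. Without wild type MUM2B replicate 2 APC2 was lost, and without its replicate 3 ZNRF3 and MYC. The loss of wild type OCM1 replicate 2 ended the call of FZD8, ZNRF3 and MYC, and that of replicate 3 the call of DKK2, MYC and WNT5B. Leaving out OCM1 CANT1 replicate 2 ended it for ZNRF3, APC2 and MYC, and replicate 3 for FZD8. The values without those arrays were −0.57 to −0.47 for FZD8, −1.12 to −0.98 for DKK2, 0.42 to 0.51 for ZNRF3, 0.50 to 0.56 for APC2, −0.53 to −0.41 for MYC and −0.81 for WNT5B.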

How the results depend on the processing

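Leaving out SFRP1 in every contrast with OCM1, and DKK1, DKK3, WNT5B and AXIN2 between the lines, none of the 18 called results of the list reversed its direction under any alternative run. Of them 1 of 341 alternative values lost the call, and of 58 results not called, 27 of 1193 gained it. The alternatives for replicates 2 and 3 never included replicate 1, so a change of sign there could not appear among them. On replicate 1 the CANT1 differences in MUM2B of DKK3 (−0.81), WNT5B (−1.13) and FZD7 (−0.91) had the opposite sign. The count of 1 call for CANT1 in OCM1 became 0 with no growth term and 0 with only the arrays compared, and 3 with array weights. The count of 0 in MUM2B became 3 with array weights. For the difference between the lines, the count of 1 became 0 with no offset, with no filter, with no growth term and with the replicate block, 5 with array weights, and 0 to 1 when each array was left out. The gene behind both counts of 1 is SFRP1, chosen on that contrast, so nothing about its stability is read from them. The counts between lines, and those on replicates 2 and 3, stayed within 1.5 times under every alternative run. The cause of these changes was not tested.

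Same-numbered arrays deviated together at r = 0.029 to 0.623 over 12 arrays and −0.125 to 0.197 within replicates 2 and 3, so the numbers are not taken to pair the arrays. With the replicate block the counts were 1 for CANT1 in OCM1, 0 in MUM2B, 0 for the difference between them, and 6 and 7 between lines.

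Array weights were fitted with a convergence warning, so those counts are less firm. Raw intensities were not analysed here, and signal over background limits DKK1, DKK3 and WNT5B in OCM1 and AXIN2 in both lines.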
